A study of Homo sapiens with 2 samples.

Results

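miR-142 and miR-223 are miRNAs of blood cells, and each hairpin gives a mature miRNA from its 3p arm and another from its 5p arm. The 4 mature miRNAs miR-142-3p, miR-142-5p, miR-223-3p and miR-223-5p were picked by name from 2218 listed mature miRNAs. No cut on their values was used, but earlier results of these data were known. All 4 were read in both libraries. Small RNA was sequenced from K562 cells, a human erythroleukaemia line that grows in suspension, after transduction with a lentivirus for overexpression of QKI5 or with a lentivirus carrying GFP. There was 1 library in each group. QKI5 is the isoform of the RNA-binding protein Quaking that is found mainly in the nucleus, and the comparison asks which miRNAs differ in abundance when it is overexpressed. K562 cells and lentiviral transduction were common to both groups. Whether the transduced cells were a pool or a clone, and how long after transduction they were taken, is not stated in the labels, and the QKI5 transcript was not analysed here. With 1 library per group differences could not be set against a spread between replicates, and the effect of QKI5 was not tested.

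A miRNA hairpin is cut out of a long primary transcript by Drosha in the nucleus and trimmed by Dicer in the cytoplasm to a short duplex, and an Argonaute protein keeps mainly the strand of 1 arm. Target mRNAs are recognised mainly through the seed, bases 2 to 8 of the mature strand. miR-142 is made across blood cell lineages and little outside them, and both of its arms are known to act as miRNAs. miR-223 is known from the myeloid lineage, where it rises as granulocytes mature, and its 3p arm is the strand mainly known to repress targets.

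The mature sequences are shown because their seeds and their first bases set the 4 miRNAs apart. They are from RefSeq on GRCh38.p14, 5′ to 3′, with the seed in capitals, and all 4 names matched.
hsa-miR-142-3p: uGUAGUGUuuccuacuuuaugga
hsa-miR-142-5p: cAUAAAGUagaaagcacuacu
hsa-miR-223-3p: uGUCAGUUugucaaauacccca
hsa-miR-223-5p: cGUGUAUUugacaagcugaguu
The 4 seeds all differ, so no member shares a seed with another. A single other human miRNA in the RefSeq table carries 1 of these seeds, miR-5590-3p from chromosome 2, which has the seed of miR-142-5p.
hsa-miR-5590-3p: aAUAAAGUucauguauggcaa
It had 0 reads in the QKI5 library and 1 read in the GFP library. Among the listed miRNAs with a RefSeq sequence (1946 of 2218), almost all reads with this seed were thus those of miR-142-5p. The mature lengths were 23 bases for miR-142-3p, 21 for miR-142-5p and 22 for both arms of miR-223. The nearest other mature sequence in the table was at least 7 single-base edits away from miR-142-3p and 8 from each of the other 3, and each member had 1 hairpin gene.

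The hairpins are shown because the arm ratios below compare strands cut from the same precursor. The 2 arms are in capitals.
MIR142: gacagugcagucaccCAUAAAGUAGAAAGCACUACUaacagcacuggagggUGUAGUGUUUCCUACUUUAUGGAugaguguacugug
MIR223: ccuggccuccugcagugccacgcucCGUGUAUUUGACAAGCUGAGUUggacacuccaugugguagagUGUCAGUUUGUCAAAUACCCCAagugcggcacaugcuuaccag
The 87-base MIR142 hairpin lies on the minus strand at chr17:58331232-58331318 of GRCh38.p14, and the 110-base MIR223 hairpin on the plus strand at chrX:66018870-66018979. In GENCODE 29, also on GRCh38, both hairpins overlap an exon of a non-coding transcript on their own strand, and MIR142 also lies within an intron of TSPOAP1-AS1 on the opposite strand. RefSeq calls the non-coding host genes MIR142HG and MIR223HG. Both hairpins follow the same plan in which the 3p strand begins with U and the 5p strand with C. The longest stretch of unbroken Watson-Crick pairing between the arms was 10 bases in miR-142 and 11 bases in miR-223. In the arms below, the capitals mark that stretch.
miR-142-5p: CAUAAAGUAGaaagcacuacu
miR-142-3p: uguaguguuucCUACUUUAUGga
miR-223-5p: cguGUAUUUGACAAgcugaguu
miR-223-3p: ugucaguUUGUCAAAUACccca
In miR-142 the stretch reaches the 5′ end of the 5p strand, whereas in miR-223 it starts past the first 3 bases of that strand.

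The MIR142 hairpin holds the letters ACUAAC, a form of the element that QKI proteins are known to bind in RNA. They are in capitals here.
MIR142: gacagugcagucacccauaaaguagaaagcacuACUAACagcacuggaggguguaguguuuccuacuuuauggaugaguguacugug
The match covers bases 34 to 39 of the hairpin, the last 3 bases of the 5p arm and the first 3 of the loop. Hairpins were searched for ACUAAC and ACUAAU and for their reverse complements GUUAGU and AUUAGU. MIR223 held none of the 4, and MIR142 held no other match. Of 1560 human hairpins in the RefSeq table, with a median length of 80 bases, 0.769% held ACUAAC and 1.54% held ACUAAC or ACUAAU. The search was chosen after the hairpin sequences had been seen. A match is a run of letters and does not show that QKI5 binds there.

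The totals behind the deposited values were 6553945 reads for QKI5 and 23262340 reads for GFP, a difference in depth of 3.55 times. They were inferred from the value of a single read, and which reads the authors counted in them is not stated. Listed miRNAs took 59.5% of that total with QKI5 and 66.3% with GFP. Levels are in RPM, reads per 1000000 reads of the library. All 6 erythroid markers were detected in both libraries, with summed levels of 3464 RPM in QKI5 cells, against 4148 RPM in GFP cells. The 8 epithelial miRNAs summed to 79.5 RPM in QKI5 cells, against 67.5 RPM in GFP cells, and the 4 muscle miRNAs to 3.05 RPM in QKI5 cells, against 0.473 RPM in GFP cells. The liver marker miR-122 had 0 reads with QKI5 and 1 read with GFP. The 0 reads allow a level of up to about 0.458 RPM, the value of 3 reads, which is not one of the exact intervals. Both arms of miR-126, known from megakaryocytes and endothelium, summed to 39659 RPM in QKI5 cells, against 15054 RPM in GFP cells, and what part this difference has in the results on miR-142 and miR-223 was not tested. The neuronal list of miR-9 and miR-124 summed to 418 RPM in QKI5 cells, against 452 RPM in GFP cells, with 3 of its 4 members detected in each. Nearly all of this was miR-9, with mean levels over both libraries of 354.9 RPM for miR-9-5p and 79.8 RPM for miR-9-3p.

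The main strands of both hairpins were among the most abundant miRNAs of these cells and sat side by side in the ranking. miR-142-3p was at 10427 RPM in QKI5 cells (68335 reads), against 8889 RPM in GFP cells (206790 reads), and it ranked 8 of 2218 in each. miR-223-3p was at 9840 RPM in QKI5 cells (64494 reads), against 9441 RPM in GFP cells (219612 reads), and it ranked 9 with QKI5 and 7 with GFP. Thus the myeloid miR-223 strand and the pan-leukocyte miR-142 strand were present at nearly equal read levels in this erythroleukaemia line. The 5p strands were much rarer. miR-142-5p was at 596 RPM in QKI5 cells (3909 reads), against 754 RPM in GFP cells (17545 reads), with ranks of 67 and 56. miR-223-5p was at 30.1 RPM in QKI5 cells (197 reads), against 25.3 RPM in GFP cells (588 reads), with ranks of 248 and 240. A lower level in bulk RNA can mean fewer cells that make a miRNA or less of it per cell, and these cannot be told apart. The 4 strands together held 3.51% of the listed miRNA reads of the QKI5 library and 2.88% of those of the GFP library.

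**Figure D1:**
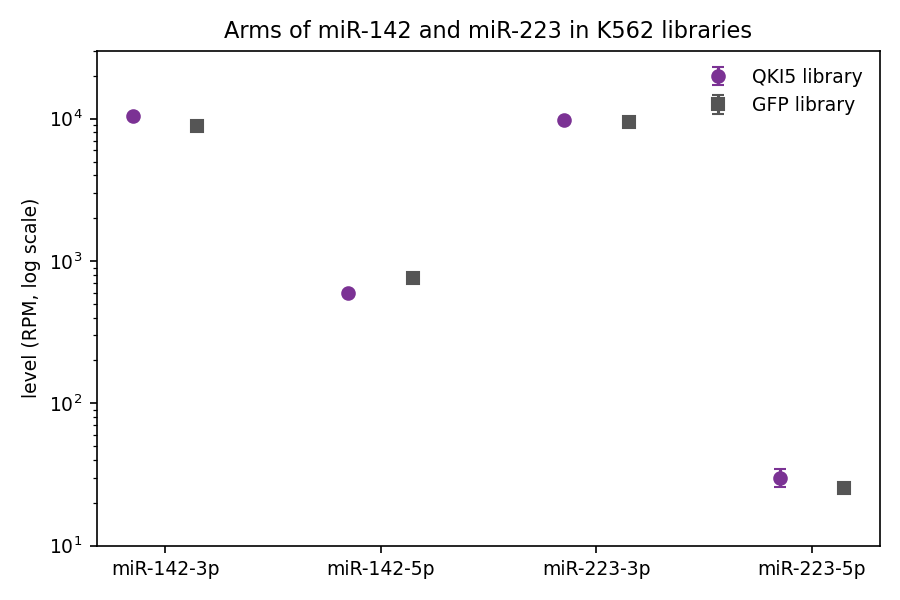
Level of each strand in RPM (log axis) in the QKI5 library (circles) and the GFP library (squares), with exact Poisson 95% intervals that cover counting error only and are mostly smaller than the symbols. The 3p strands lie between 8889 and 10427 RPM, miR-142-5p between 596 and 754 RPM and miR-223-5p between 25.3 and 30.1 RPM.

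Both 3p strands were more abundant than miR-451a, the red cell miRNA whose maturation bypasses Dicer. There were 4.77 miR-142-3p reads per miR-451a read in QKI5 cells, against 3.18 in GFP cells. For miR-223-3p the values were 4.50 with QKI5 and 3.37 with GFP. These ratios compare reads of miRNAs of like length, and because ligation of adapters differs between sequences they are not ratios of molecules.

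No member differed by 2-fold between the libraries. Of the 3 members among the 200 most abundant miRNAs, 0 reached 2-fold, where 22% of those 200 did. Over the 400 most abundant, which include miR-223-5p, 0 of 4 members reached 2-fold, where 28% did. miR-142-3p stood at 1.17 times its GFP level in the QKI5 library (95% exact conditional binomial interval 1.16 to 1.18, for counting error only), a log2 ratio of 0.23, which was 0 under quantile normalization, where its equal rank in both libraries fixes it, and 0.59 once a linear trend on GC content was taken out. miR-142-5p lay the other way, 1.26-fold lower with QKI5 (1.22 to 1.31), a log2 ratio of -0.34, which was 0.06 without that trend. miR-142-5p was the only member below its GFP level as deposited. miR-223-3p stood at a ratio of 1.04 (1.03 to 1.05), a log2 ratio of 0.06, and its sign turned with quantile normalization (-0.36), with a trimmed mean (-0.01) and with scaling on all but the 10 most abundant (-0.05). miR-223-5p stood at a ratio of 1.19, with an interval of 1.01 to 1.40 that comes from its 197 and 588 reads, and its log2 ratio of 0.25 turned to -0.11 under quantile normalization.

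The spread of all miRNAs sets the scale for these values. The log2 ratios of the 200 most abundant miRNAs had a median of 0.06 and an SD of 0.86 across miRNAs, with the middle 50% between -0.46 and 0.70. miR-142-3p lay 0.17 above that median on the log2 scale, with 56.0% of the 200 below it. miR-223-3p lay at the median, at the middle of the ranking of the 200. miR-142-5p lay below the median, by a log2 difference of -0.40, with 32.5% of the 200 below it. All 3 lay inside the middle 50%. Rescaling the columns to the sum of the listed miRNAs moved the median of the 200 to 0.21, and the log2 ratios of the members were then 0.39 for miR-142-3p, -0.18 for miR-142-5p, 0.22 for miR-223-3p and 0.40 for miR-223-5p.

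**Figure D2:**
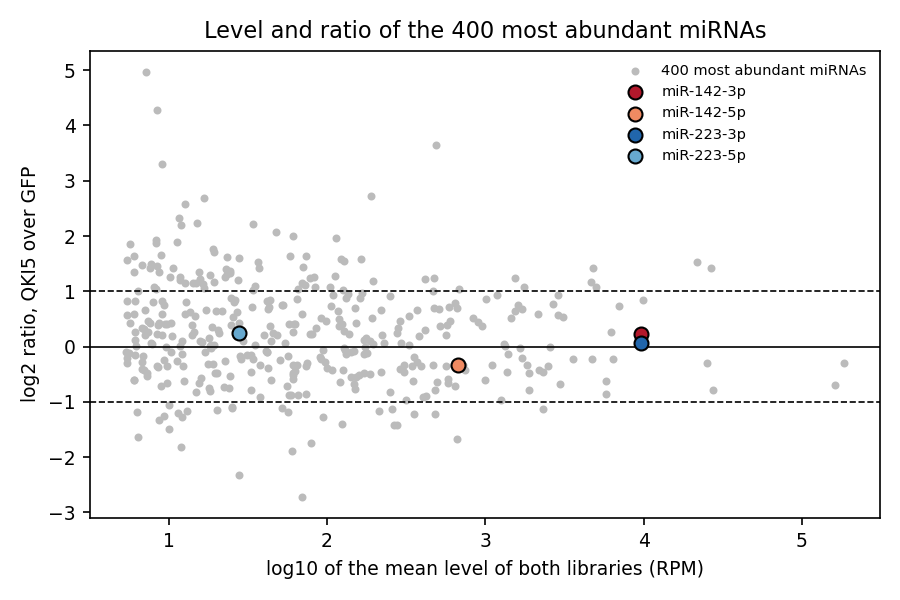
Log2 ratio of QKI5 over GFP against the log10 of the mean level in RPM for the 400 most abundant miRNAs (grey), with the 4 strands in colour and dashed lines at 2-fold. All 4 strands lie inside the dashed lines, miR-142-5p below 0 as deposited (above it, at 0.06, with the GC trend removed) and miR-223-3p at 0.06, a value whose sign depended on the scaling.

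**Figure D3:**
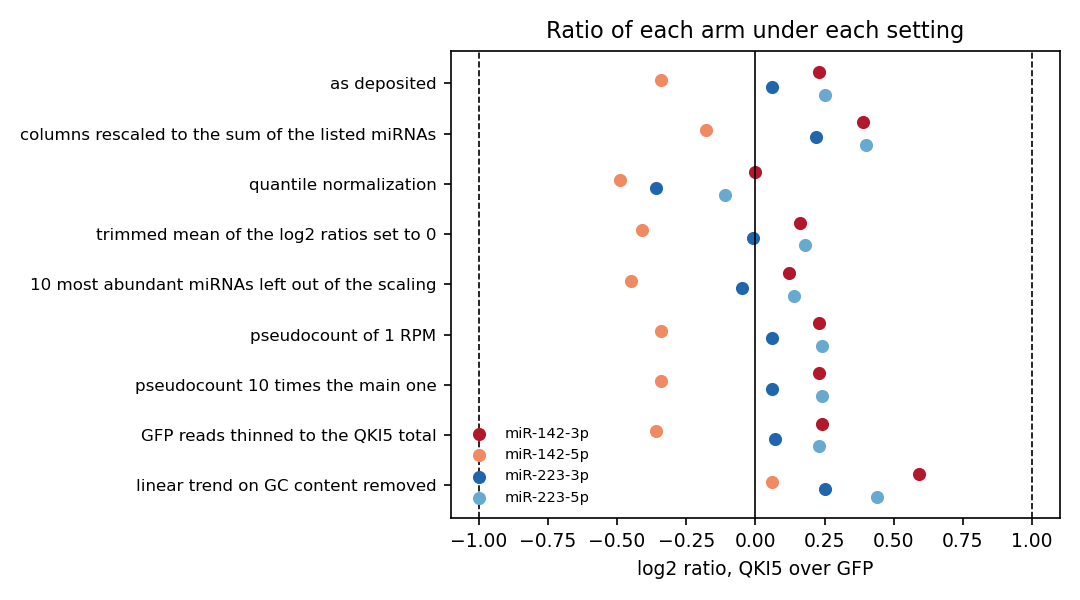
Log2 ratio of QKI5 over GFP for each strand under each setting of scaling, pseudocount, depth and base composition, with dashed lines at 2-fold. No strand reaches 2-fold under any of the 9 settings drawn, miR-142-5p crosses 0 only with the GC trend removed, and miR-223-3p lies on both sides of 0.

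The balance of the 2 arms does not depend on a library's scaling factor, since both arms are read in the same library. miR-142 leaned further to its 3p arm in the QKI5 library. There were 17.5 miR-142-3p reads per miR-142-5p read with QKI5 (16.9 to 18.1) and 11.8 with GFP (11.6 to 12.0). The 5p strand thus made up 5.41% of the miR-142 reads in QKI5 cells, against 7.82% in GFP cells. The change in the arm ratio was 1.48-fold (exact conditional interval 1.43 to 1.54), 0.57 on the log2 scale, and 0.53 with the GC trend removed. The counting intervals of the libraries did not overlap, while the spread between cultures is unknown.

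miR-223 kept a far steeper balance. There were 327 miR-223-3p reads per miR-223-5p read in QKI5 cells (285 to 379), against 373 in GFP cells (344 to 406). The 3p strand made up 99.70% of the miR-223 reads with QKI5 and 99.73% with GFP. The change was 0.876-fold with an interval of 0.745 to 1.04 that includes no change, so a difference in the arm balance of miR-223 was not detectable at this depth. The log2 change was -0.19.

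Neither change stood out among other hairpins. The arm ratio was compared for 145 hairpins with at least 50 reads on each arm over both libraries, a filter that leaves out hairpins whose minor arm was hardly read. Of the 2 hairpins, 0 changed by 2-fold, where 36.6% of the 145 did. By the size of its change miR-142 ranked 86 of 145 and miR-223 ranked 125. The 145 differ widely in reads, with 20 3p reads for miR-424 in the QKI5 library against 68335 for miR-142. Counting error therefore widens this background, by an amount that was not measured. The log2 change had a median of -0.16 over the 145, an SD of 1.08 and quartiles of -0.89 and 0.57, with 62 hairpins above 0 and 83 below. The arms of miR-142 lay on opposite sides of their GFP level as deposited, as did those of 59 of the 145 hairpins (40.7%).

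miR-223 was among the hairpins most weighted to the 3p arm. Of the 145 hairpins, 8 had over 100 3p reads per 5p read in QKI5 cells, against 9 in GFP cells, and miR-223 was the 7th most 3p-weighted of the 145 with QKI5 and the 4th with GFP. miR-142 was 25th with QKI5 and 32nd with GFP. Of the 127 hairpins with both mature sequences in the RefSeq table, 48% had a U as first base of the more abundant arm and 21.3% had a U as first base of the rarer arm. The pattern of U on the major strand and C on the minor strand, seen in both miR-142 and miR-223, was present in 18.9%. The hairpins with the largest changes toward the 3p arm were miR-361, miR-652 and miR-642a (9.30-, 6.14- and 3.96-fold), and those with the largest toward the 5p arm were miR-539, miR-369 and miR-424 (8.68-, 7.79- and 5.36-fold).

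**Figure D4:**
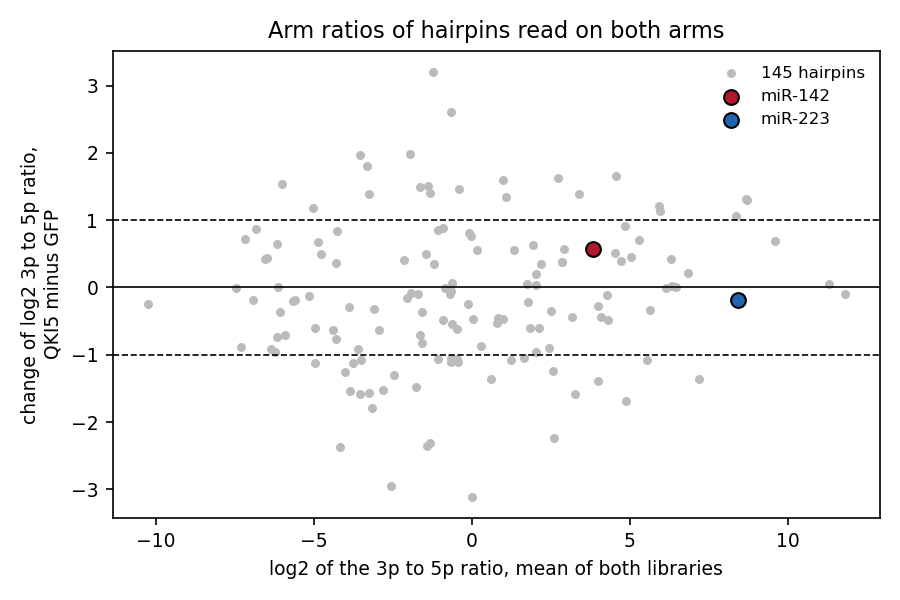
Change of the log2 ratio of 3p to 5p reads (QKI5 minus GFP) against its mean over both libraries for 145 hairpins (grey), with miR-142 and miR-223 in colour and dashed lines at 2-fold. miR-142 lies at 0.57 and miR-223 at -0.19, both inside the dashed lines, and miR-223 lies near the right edge, among the hairpins most weighted to the 3p arm.

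Adding both arms gives the total read output of each hairpin. miR-142 gave 11023 RPM in QKI5 cells, against 9644 RPM in GFP cells, a ratio of 1.14 (1.13 to 1.15). miR-223 gave 9871 RPM in QKI5 cells, against 9466 RPM in GFP cells, a ratio of 1.04 (1.03 to 1.05). Since the 5p strands are so rare, these totals follow the 3p strands and share their dependence on the scaling, under which the ratio of miR-223-3p changed sign.

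The order of the main strands turned over between the libraries. There were 1.06 miR-142-3p reads per miR-223-3p read in QKI5 cells (1.05 to 1.07), against 0.942 in GFP cells (0.936 to 0.947). The shift was 1.12-fold (1.11 to 1.14) or 0.17 on the log2 scale, and does not depend on a library's scaling factor. It was 0.34 with the GC trend removed. Per base of mature length the ratios were 1.01 with QKI5 and 0.901 with GFP, so the order was the same as without that division. For the 5p strands there were 19.8 miR-142-5p reads per miR-223-5p read with QKI5 (17.2 to 23.0) and 29.8 with GFP (27.5 to 32.5). Reads of miR-142 per read of miR-223 were thus higher in the QKI5 library for the 3p strands and lower there for the 5p strands.

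The miRNAs most like the main strands in level over both libraries, by the distance between log2 levels, were first of all each other, at a distance of 0.12. Next to miR-142-3p came miR-16-5p, a repressor of cell cycle and survival genes, at 0.43 and miR-21-5p, a growth-promoting miRNA, at 0.80. Next to miR-223-3p came miR-16-5p at 0.55 and miR-17-5p, of the oncogenic miR-17-92 cluster, at 0.85. miR-16-5p was at 12705 RPM in QKI5 cells, against 7083 RPM in GFP cells, and miR-17-5p at 5958 RPM in QKI5 cells, against 6916 RPM in GFP cells. With 2 libraries this likeness rests on 2 values per miRNA.

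Within a chosen list of leukocyte miRNAs, miR-142 and miR-223 supplied nearly all reads. The leukocyte list added miR-150, miR-155, miR-146a, miR-146b and miR-342, known from lymphocytes, activated immune cells and the damping of inflammatory signalling. The 4 arms of miR-142 and miR-223 held 94.2% of the summed RPM of this 14-member list in QKI5 cells, against 96.1% in GFP cells. The lymphocyte miRNA miR-150-5p and the activation-linked miR-155-5p each had 1 read with QKI5 and 2 reads with GFP. The other 10 members summed to 1287 RPM in QKI5 cells, against 783 RPM in GFP cells.

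Without miR-142 and miR-223, all 4 leukocyte miRNAs among the 400 most abundant had a positive log2 ratio, with a median of 0.88. Both arms of miR-146b are among the 4. Over all 10 detected members, some with very few reads, the median was 0.69, against 0.12 over all detected miRNAs. Of the 400, 232 lay above 0 and 168 below. Of the 4, 2 were at least 2-fold higher with QKI5. Among the 400, 28% reached 2-fold either way, 83 of them higher and 29 lower. miR-146b-3p was at 12.5 RPM in QKI5 cells, against 4.82 RPM in GFP cells, 2.60-fold higher (1.93 to 3.49), with log2 ratios of up to 1.67 over the settings compared and about 1 at the lowest, under quantile normalization. miR-146a-5p, which restrains signalling through Toll-like receptors, was at 88.8 RPM in QKI5 cells, against 43.0 RPM in GFP cells, 2.07-fold higher (1.86 to 2.29), but was under 2-fold with quantile normalization (log2 ratio 0.82), with the trimmed mean (0.97) and with scaling on all but the 10 most abundant miRNAs (0.94). Over all 8 leukocyte miRNAs among the 400, with miR-142 and miR-223 included, 7 lay above 0 and 1 below, with a median of 0.46, while the median of the 400 was 0.21. These counts describe the list and no test was made of it.

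The erythroid list, miR-451a with miR-144, miR-486 and miR-210, had 6 members among the 400. Of these, 4 lay above 0 and 2 below, 0 reached 2-fold and the median log2 ratio was 0.16. Of all 400, 232 lay above 0 and 168 below, 28% reached 2-fold and the median was 0.21. miR-451a was at 2187 RPM in QKI5 cells, against 2798 RPM in GFP cells, 1.28-fold lower (1.26 to 1.30). Its neighbour miR-144-3p was at 293 RPM in QKI5 cells, against 548 RPM in GFP cells, a log2 ratio of -0.90, and the hypoxia-responsive miR-210-3p was at 143.7 RPM in QKI5 cells, against 75.1 RPM in GFP cells, a log2 ratio of 0.93. miR-144-3p passed 2-fold with scaling on all but the 10 most abundant miRNAs (-1.01), and miR-210-3p when the columns were rescaled to the listed miRNAs (1.09). With the GC trend removed they were at -0.41 and 0.51. The other arm of miR-144 lay the other way. miR-144-5p was at 52.3 RPM in QKI5 cells, against 32.5 RPM in GFP cells, a log2 ratio of 0.68, and 1.13 with the GC trend removed.

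**Figure D5:**
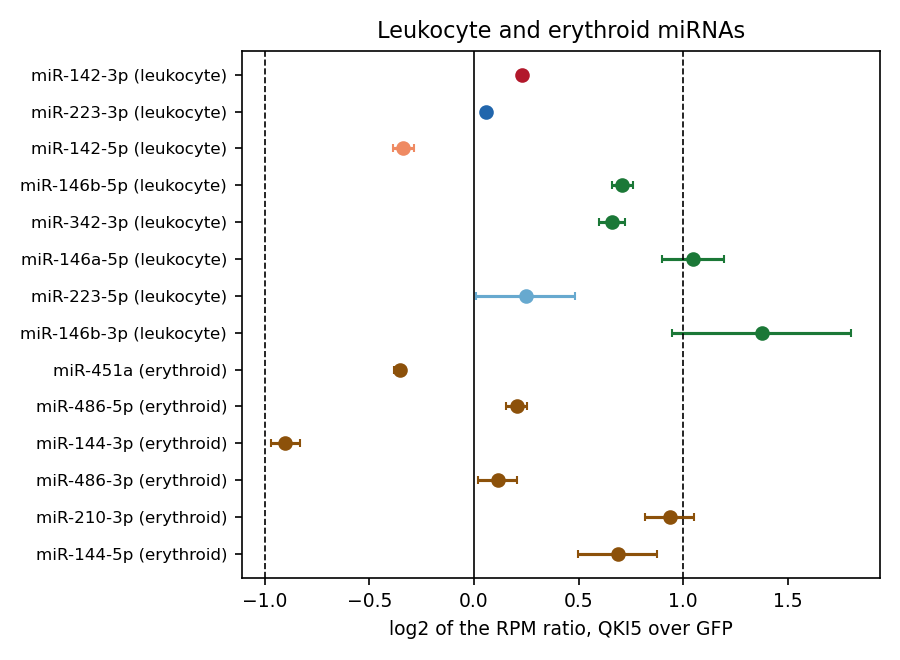
Log2 of the plain RPM ratio, QKI5 over GFP, for the 8 leukocyte and 6 erythroid miRNAs among the 400 most abundant, with exact conditional binomial 95% intervals for counting error only and dashed lines at 2-fold. The arms of miR-142 and miR-223 lie between -0.34 and 0.25 as deposited, while miR-146a-5p and miR-146b-3p lie past 1 as deposited (miR-146a-5p between 0.82 and 0.97 under 3 of the other scalings).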

How the data were processed

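Small RNA of K562 cells was enriched with the mirVana kit, made into libraries with an Ion Torrent kit and read on an Ion Proton, per the labels' protocols. Bowtie 0.12.3 and hg19 are named in the submitters' processing notes. The annotation, the mismatches allowed, reads with several matches and strand are not covered there. Although the file name says RPKM, the authors deposited RPM values. In each column 100.0% of the values above 0 were whole multiples of a single step within 0.1 of a read, 0.153 RPM for QKI5 and 0.0430 RPM for GFP, and each step was taken as 1 read.

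Log2 ratios are of log2(RPM + 0.153), which understates ratios of rare miRNAs, and folds are plain RPM ratios. Intervals are exact at 95% (conditional binomial for ratios between libraries, Clopper-Pearson for arms within a library, Poisson for levels). They cover counting error only, because each group had 1 library. They also treat reads as independent, although without molecular identifiers several reads can stem from the same molecule. Alternative scalings were the sum of the listed miRNAs, quantile normalization, a mean of log2 ratios trimmed by 30% on each side, the sum without the 10 most abundant miRNAs, and removal of a linear trend of the log2 ratio on the GC content of the mature sequence. A call meant 2-fold among the 200 (or 400) miRNAs of highest mean level. The members, the lists and the alternatives were chosen with earlier results of these data known. Named were the 4 members, miRNAs with a member's seed, the most abundant and the 2 most different of each list among the 400, the 3 nearest in level to each 3p strand and the 3 largest arm changes each way. miR-150-5p, miR-155-5p and miR-144-5p were named after their values were seen. The miRNAs from hairpins with ACUAAC or ACUAAU were also named outside these rules. Of them, miR-379-5p, miR-758-3p and miR-744-5p, whose levels are given, are those that passed 2-fold. Sequences came from RefSeq (GRCh38.p14), which matched 1946 of the 2218 names, and host genes from GENCODE 29. The notes name hg19, so the positions given are those of the RefSeq table only. The ratio and interval steps were tested on simulated data. Calculations ran in Python 3.11.15 with scipy 1.17.1, pandas 2.3.3 and numpy 2.4.6.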

Additional observations from a re-analysis of the deposited data

How the results depend on the processing

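No member reached 2-fold under any setting compared. Of 32 alternative values of the members' ratios, 16 lay inside the counting interval of the deposited ratio. Changes of pseudocount and thinning of the GFP reads left every member inside. Every other scaling and the GC removal put miR-142-3p, miR-142-5p and miR-223-3p outside. miR-223-5p, whose interval is wide, left it only under quantile normalization. With the columns rescaled to the listed miRNAs the log2 ratios were 0.39 for miR-142-3p, -0.18 for miR-142-5p and 0.22 for miR-223-3p, and the list medians were 0.61 (leukocyte) and 0.31 (erythroid). With quantile normalization they were 0.00 for miR-142-3p, -0.49 for miR-142-5p, -0.36 for miR-223-3p and -0.11 for miR-223-5p, with list medians of 0.34 and 0.03. With a trimmed mean they were 0.16, -0.41 and -0.01 for miR-142-3p, miR-142-5p and miR-223-3p. With the 10 most abundant miRNAs left out of the scaling they were 0.12, -0.45 and -0.05, with list medians of 0.35 and 0.05. After removal of a linear GC trend, an alternative chosen after seeing the data that was fitted on 358 of the 400 miRNAs, they were 0.59, 0.06 and 0.25. The cause of these shifts was not tested beyond the settings' own construction. The changes in the arm ratios and in the miR-142-3p to miR-223-3p ratio stayed inside their counting intervals with a pseudocount of 1 RPM and with thinned GFP reads (1 random draw), and the arm ratios also with 10 times the pseudocount and with the GC trend removed. With that trend removed the change of the miR-142-3p to miR-223-3p ratio was 0.34. With at least 10 reads on each arm instead of 50, 225 hairpins were compared and 40.9% changed by 2-fold. The count of 44 miRNAs at 2-fold among the 200 became 112 among the 400, 620 among all detected miRNAs, 99 at 1.5-fold and 11 at 3-fold. Of these 44, 30 were higher and 14 lower, against 18 and 20 under quantile normalization, 23 and 18 with the 10 most abundant left out, and 41 and 12 when rescaled to the listed miRNAs. An exact binomial test on recovered reads (Benjamini-Hochberg adjustment, 0.05) called 426 of 1995 detected miRNAs, with 182 of the 200 most abundant miRNAs and 3 of the 4 members among them. It compares these 2 libraries and not the conditions. No paired analysis was possible because each group had 1 library, and for the same reason no library could be left out.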

Other observations

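Among the 400 most abundant miRNAs with a RefSeq sequence, 10 come from a hairpin that holds ACUAAC or ACUAAU, the letters searched after the MIR142 sequence had been seen. Besides both arms of miR-142 these were both arms of miR-379, miR-411 and miR-744, with miR-758-3p and miR-3657. Of the 10, 4 lay above 0 and 6 below, 2 passed 2-fold upward and 1 downward, with a median log2 ratio of -0.28. Of all 358 matched miRNAs, 205 lay above 0 and 153 below, 73 passed 2-fold upward and 27 downward, and the median was 0.21. miR-379-5p, from the imprinted 14q32 cluster, was at 2170 RPM in QKI5 cells, against 914 RPM in GFP cells, and its other arm miR-379-3p was at 87.4 RPM in QKI5 cells, against 107 RPM in GFP cells. miR-758-3p, of the same cluster, was at 290 RPM in QKI5 cells, against 676 RPM in GFP cells. miR-744-5p was at 35.2 RPM in QKI5 cells, against 11.4 RPM in GFP cells. The miRNAs with these letters thus lay on both sides of their GFP level as deposited, and the 2 arms of a hairpin did not always lie on the same side. Of the 4 hairpins with these letters that were compared on both arms, miR-142 changed toward the 3p arm and 3 toward the 5p arm. Their median log2 change was -0.80, with 2 past 2-fold. Over 139 hairpins with a RefSeq sequence the median was -0.16, with 60 above 0 and 79 below, and 21 and 29 past 2-fold. Whether QKI5 binds any of these hairpins was not tested.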
